A study of Homo sapiens with 2 samples.

Results

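GDF15, EGR1 and ATF3 are stress-inducible genes, and their transcript levels were followed in MDA-MB-231, a long-established line of human breast cancer cells, under a pair of agents directed at the microRNA miR-544. One group received a miR-544 antagomir, which is a synthetic antisense strand against the microRNA, and the other received compound 1. In both groups the agent was given 24 hours before the cells were moved to hypoxia (below 1% oxygen), where they stayed for 5 days. Each group was measured on 1 array of pooled RNA; the design text speaks of 3 samples that were pooled, and the sources used here do not say how these divide between the treatments. There was no array of untreated or normoxic cells, so every value below sets compound 1 beside the antagomir. The 3 genes were found by symbol in the platform's probe table, which gave 4 transcript clusters (the probe groups that each report 1 value) among 16098 clusters with a symbol and 53617 in all. GDF15 (cluster 16859795) and ATF3 (16677278) had 1 cluster each, and EGR1 had 2 (16989736 and 17000463). The genes were chosen because they were known to be higher on the compound 1 array, so their differences are a description and carry no test.

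GDF15 encodes a secreted cytokine of the TGF-beta superfamily that many cells release under metabolic, hypoxic or genotoxic stress, and that signals through the receptor GFRAL with its partner RET in the hindbrain. EGR1 encodes a zinc finger transcription factor that growth factors and stress switch on within minutes, through ERK signalling to the serum response factor SRF, and that NAB1 and NAB2 hold back as corepressors. ATF3 encodes a basic leucine zipper factor that is induced in the integrated stress response, downstream of ATF4, and by several other stresses. EGR1 and ATF3 have both been reported to act at the GDF15 gene. MDA-MB-231 cells carry a mutant p53.

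The sequences upstream of annotated starts of the 3 genes are shown so that these windows can be compared letter by letter. All 3 genes had an entry in the RefSeq promoter table (GRCh38.p14), GDF15 and EGR1 with 1 window and ATF3 with 2. Each line gives the 250 bases before the annotated start on the + strand, for GDF15 at chr19:18385908-18386157, for EGR1 at chr5:138465229-138465478 and for the first ATF3 window at chr1:212565157-212565406. Capitals mark the GC box (GGGCGG) and the TATA letters (TATAAA) in GDF15, the CArG box and TGACG, the half-site of the cAMP response element, in EGR1, and TGATGNAA, the core of the C/EBP-ATF response element, in ATF3, each on either strand.
GDF15: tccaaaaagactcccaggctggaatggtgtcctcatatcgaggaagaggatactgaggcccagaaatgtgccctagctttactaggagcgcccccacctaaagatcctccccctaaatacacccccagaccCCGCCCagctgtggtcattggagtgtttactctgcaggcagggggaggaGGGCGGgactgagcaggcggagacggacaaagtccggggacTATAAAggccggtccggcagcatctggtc
EGR1: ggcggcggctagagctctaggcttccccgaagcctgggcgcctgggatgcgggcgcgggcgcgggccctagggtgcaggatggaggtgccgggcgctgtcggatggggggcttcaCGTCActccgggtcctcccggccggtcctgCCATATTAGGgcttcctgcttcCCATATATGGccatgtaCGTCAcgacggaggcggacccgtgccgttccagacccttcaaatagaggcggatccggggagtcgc
ATF3: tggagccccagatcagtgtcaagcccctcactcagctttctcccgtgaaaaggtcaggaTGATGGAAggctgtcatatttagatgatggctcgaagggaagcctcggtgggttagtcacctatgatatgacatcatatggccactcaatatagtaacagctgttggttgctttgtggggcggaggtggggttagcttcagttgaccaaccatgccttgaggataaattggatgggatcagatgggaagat

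The EGR1 window held 2 CArG boxes, the letters SRF binds, at positions -105 to -96 and -83 to -74 from the start. A CArG box occurred in 1.16% of the 35116 promoter windows of the same 250 bases. The EGR1 window also held 2 half-sites TGACG (21.2% of windows have at least 1) and 1 match to the EGR letters GCGNGGGCG (8.41%), which overlaps neither. Its C+G share was 68.4%, against 58.4% for GDF15, 49.2% for the first ATF3 window and a median of 58% over all windows.

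The GDF15 window held 2 GC boxes (42.6% of windows have at least 1) and TATAAA at -29 to -24 (10.7%). The first ATF3 window held TGATGGAA at -191 to -184, a match to TGATGNAA (3.14%), and 1 GC box. The second ATF3 window, at chr1:212614768-212615017, held TATAAA at -230 to -225 and no other searched motif. The full cAMP response element TGACGTCA (1.65%), the AP-1 letters TGANTCA (6.57%) and a pair of p53 half-sites (0.0256%) were searched on both strands as well and matched none of the 4 windows, and the hypoxia response core NCGTG, found in 61.1% of windows, matched EGR1 at 3 places, of which 2 overlap the half-sites TGACG, and the first ATF3 window at 1. No searched motif was found in the windows of all 3 genes. A match here is only a run of letters, and the absence of one says nothing of a factor. Only the windows of this promoter table were searched, so sites elsewhere at these genes were not looked for.

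GDF15 was measured well above the entry level under both agents. Its log2 level was 8.31 with the antagomir and 9.12 with compound 1, which are the 86.4th and 92.2nd percentiles of signal over all clusters. The compound 1 array was thus the higher by 0.81 on the log2 scale, or 1.76-fold if the deposited logarithm is to base 2. Among the 9584 measured protein-coding genes, those whose higher array reached a log2 level of 5.60, the 50th percentile of mean levels, GDF15 had the highest difference, also after centring, quantile normalization and cyclic loess; with no filter on level it was 15th of 11916. The next genes in that order, KRT9, ZNF675 and TMEM252, each differed by 0.77 but started from antagomir levels of 5.02, 4.92 and 5.05, below that entry level.

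EGR1 was also higher with compound 1, in both of its clusters. Its brighter cluster was at 8.54 with the antagomir and 9.15 with compound 1, a difference of 0.61 (1.53-fold), which put it at rank 12 (68 with no filter). The genes around it in that order were, above it, ARHGEF33 (0.67), PELI2 (0.64) and STYXL2 (0.63) and, below it, CCL18 (0.60), OTOP1 (0.60) and DRD3 (0.60). The antagomir levels of these 6 genes ran from 5.05 for CCL18 to 5.71 for DRD3, far under that of EGR1. When entry was raised to the 75th percentile, EGR1 followed GDF15 directly at rank 2 of 6054 genes.

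ATF3 had the smallest difference of the 3 genes. It was at 6.05 with the antagomir and 6.35 with compound 1, a difference of 0.29 (1.22-fold), at rank 364 (746 with no filter), with 3.79% of the other protein-coding genes higher. The genes on either side of it in that order were LONRF2, PNMA3 and DUSP29 above and HMOX1, DUOX2 and ANGPTL6 below, all at 0.29. HMOX1, which encodes the stress-inducible heme oxygenase, was at 7.78 and 8.07. At the 75th percentile of level ATF3 did not enter.

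**Figure D1:**
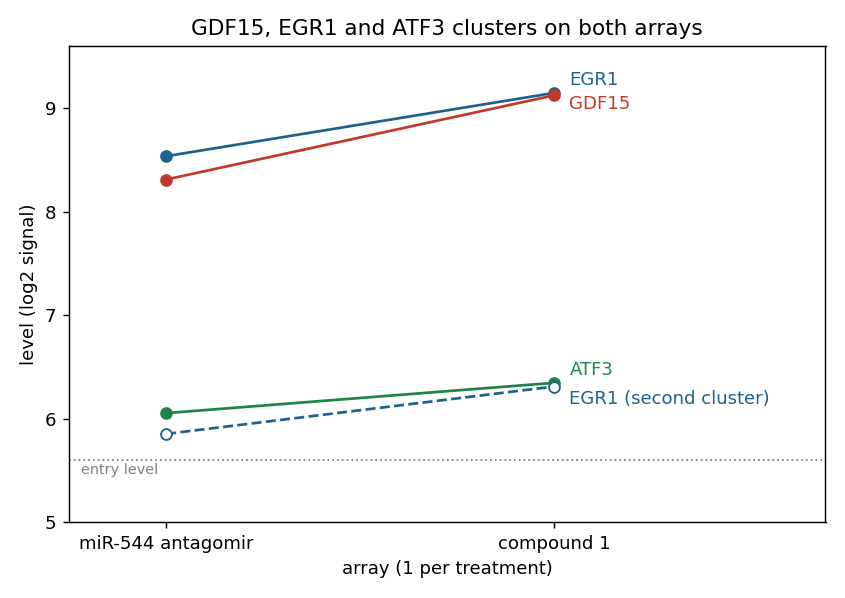
Log2 signal (y axis) of the 4 clusters of GDF15, EGR1 and ATF3 with the antagomir and with compound 1 (x axis, 1 array per treatment); lines join the values of a cluster and the dotted line is the entry level of 5.60. All 4 lines run upward to compound 1, from 8.31 to 9.12 for GDF15, while ATF3 and the second EGR1 cluster (open circles) stay below 6.40.

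With 1 array per treatment no replicate error exists, and treatment, pool and hybridisation cannot be told apart. The only yardstick in the data is how far other clusters of like level differed, meaning the named clusters whose mean level lay within 0.5 of the gene's. For GDF15 these were 1928 clusters (itself included) with a median difference of -0.070 and a robust SD of 0.14, and 1 other was at least as high. For the brighter EGR1 cluster 2 others of 1827 were, around a median of -0.070. For the dimmer EGR1 cluster 63 others of 3235 were, or 1.95%, around a median of 0.043. For ATF3 283 others of 3289 were at least as high, or 8.61%, around a median of 0.033 with a robust SD of 0.20. GDF15 stood at 6.33 robust SDs from the median of its level, and the brighter EGR1 cluster at 5.10. The dimmer EGR1 cluster stood at 2.13 and ATF3 at 1.32. This SD is a spread across different genes and no measurement error. Since the genes were picked on this contrast, these places are a description and no test.

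**Figure D2:**
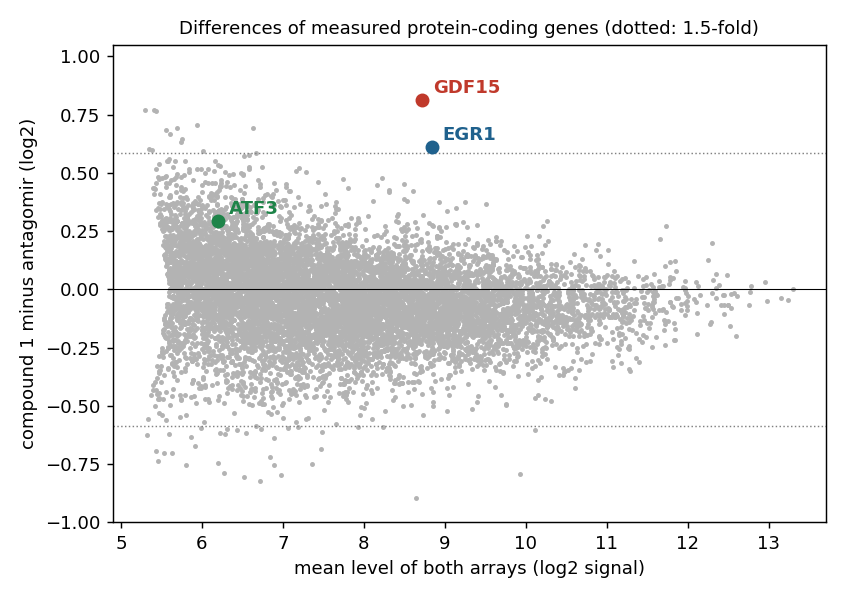
Difference between the arrays (y axis, log2, compound 1 minus antagomir) against the mean level of both arrays (x axis, log2 signal) for 9584 measured protein-coding genes; each grey point is a gene and dotted lines mark 1.5-fold. GDF15 (0.81) and EGR1 (0.61) lie above the other protein-coding genes of their level, and ATF3 (0.29) lies inside the cloud.

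Past 1.5-fold, 16 of the 9584 protein-coding genes were higher on the compound 1 array, or 0.167%, and 35 were lower, or 0.365%. GDF15 and EGR1 were among the 16 and ATF3 was not; since the genes were picked on this contrast, nothing is read from that count. After centring EGR1 was at 1.497-fold, just under the line, and after quantile normalization and cyclic loess it was at 1.60-fold. GDF15 ranged from 1.72-fold to 1.84-fold and ATF3 from 1.20-fold to 1.21-fold over these scalings.

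The genes nearest to each in signal were found by the Euclidean distance over both arrays among measured protein-coding genes. Signals of different probes depend on the probes and do not rank transcript abundance, so this names clusters of like signal only, and the values that chose GDF15 and EGR1 enter it. Nearest to GDF15 was EGR1, at a distance of 0.23 in log2 units, then KRTAP4-8 (0.32) and RRP7A (0.35). Nearest to EGR1 was FSTL3, which encodes a secreted antagonist of activins, at 0.21, then GDF15 (0.23) and NTN4 (0.24). Nearest to ATF3 were AQP8 (0.0036), TMEM198 (0.0058) and GCGR (0.0089). With 2 arrays these distances show no shared pattern.

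The second EGR1 cluster had the lower signal, at 5.85 with the antagomir and 6.31 with compound 1, a difference of 0.46 (1.37-fold). It lay below the brighter cluster by 2.68 and 2.84 log2 units on the respective arrays, a gap between different probes that is no measure of abundance. The cluster numbers follow the genome by chromosome and strand over most of the array, since 10617 of 11549 named clusters with a known strand sat among genes of their own strand (at least 5 of the 6 nearest in number). Of the 6 named clusters next to the brighter EGR1 cluster, all 6 belong to genes on the strand of EGR1, whereas of those next to the dimmer one 5 belong to genes on the opposite strand. Whether the dimmer cluster reads the opposite strand was not tested, since no probe coordinates were used here. In all, 304 named clusters, or 2.63%, sat in such an opposite-strand run.

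Among 132 genes with 1 entering cluster in each kind of run, the same-strand cluster was the brighter in 96, as for EGR1. The paired differences had the same sign in 69 genes (52.3%) and correlated across genes with r = 0.103, or 0.060 without EGR1; genes are not replicates, and all pairs share the same 2 arrays. When each gene was given the smaller of its paired differences, EGR1 was the highest of the 132. Its pair was selected with both values known, so this too is a description. FOSB, a component of AP-1, was the other immediate early gene among these pairs, with 0.11 and 0.17.

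**Figure D3:**
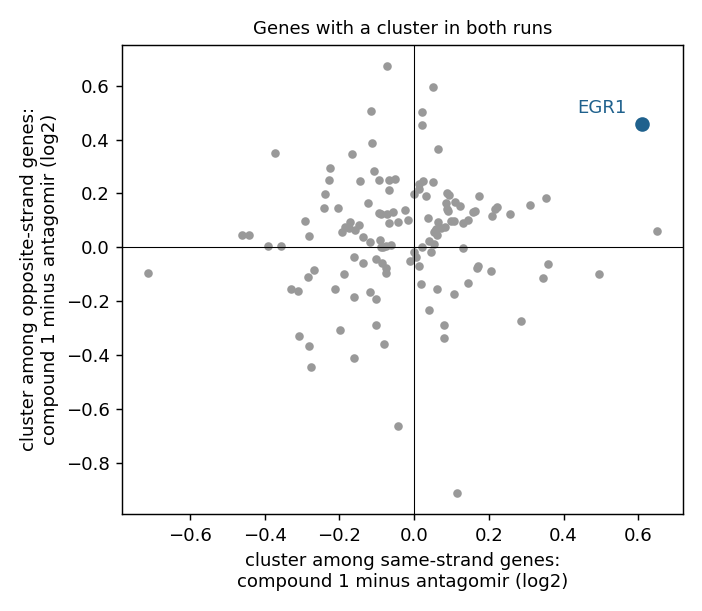
Difference between the arrays (log2, compound 1 minus antagomir) of the cluster that lies among same-strand genes (x axis) and of the cluster that lies among opposite-strand genes (y axis) for 132 genes, 1 point each. EGR1 lies at 0.61 and 0.46 in the upper right, while the other points scatter around 0 with r = 0.060.

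GDF15 holds the microRNA gene MIR3189 inside its RefSeq bounds. That cluster did not enter, with levels of 4.12 and 3.99 and a difference of -0.13 where GDF15 had 0.81.

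Genes that act with the 3 were taken from 10 lists, with GDF15, EGR1 and ATF3 left out of each count. The lists hold 152 different genes, of which 91 were measured. The rest had no cluster with their symbol or did not reach the entry level. A cluster was found for 20 of 26 listed immediate early genes and for 10 of 21 p53 targets. Of the 91 measured genes, 39 were higher on the compound 1 array, 51 lower and 1 equal. Among all measured protein-coding genes 40.1% were higher and 58.9% lower. None of the 91 was at least 1.5-fold higher and 1, DDIT4, was at least 1.5-fold lower. The highest difference among the measured genes was 0.35, for KLF2, so none of the 91 reached EGR1 or GDF15. GDF15 held rank 1 and EGR1 rank 12 of the 9584 measured protein-coding genes, and both were picked on this contrast. Nothing is therefore read from that comparison. Below the entry level, MSTN on the ligand list was at 3.85 and 4.80 (0.95), past both EGR1 and GDF15.

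The partners of EGR1 showed no common direction. EGR3 was at 6.25 with the antagomir and 6.14 with compound 1, and EGR4 at 6.17 and 6.35. The corepressor gene NAB2 was higher by 0.21 and NAB1 lower, at 7.47 on the compound 1 array against 7.92 (-0.44). These 4 genes had a median of 0.030 with 2 higher, against a median of -0.041 over all measured protein-coding genes. EGR2 was not analysed here.

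Upstream of EGR1, SRF was at 10.44 and 10.50 (0.06). Its cofactor genes MRTFA and MRTFB were at 0.06 and -0.25. Of 7 measured genes that ERK signalling induces as its own brakes and effectors, all 7 were lower on the compound 1 array, with a median of -0.21 (6 lower after quantile normalization, with a median of -0.13, and 7 after cyclic loess). Over all measured protein-coding genes 58.9% were lower, with a median of -0.041, in the deposited values. The phosphatase genes DUSP4 and DUSP6, whose products switch off MAP kinases, were at -0.32 and -0.24, and the transcription factor gene ETV5 was at -0.21. DUSP5 turned to 0.007 after quantile normalization. Whether ERK signalling differed between the treatments was not tested.

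Of 20 other immediate early genes, 10 were higher and 10 lower, with a median of 0.010. Over all measured protein-coding genes 40.1% were higher and 58.9% lower, with a median of -0.041. FOS was at 6.93 and 7.08 in its brighter cluster and at 5.69 and 5.94 in its dimmer one. JUN, its AP-1 partner, was lower, at 9.92 on the compound 1 array against 10.17 on the antagomir array (-0.25). KLF2, a zinc finger factor gene, was the highest at 0.35, and MCL1, which encodes a short-lived survival protein, the lowest at -0.47. After centring the median of the list was -0.019, and after quantile normalization 0.075.

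Among the ATF, CREB and related genes, 5 of 12 were higher, where 40.1% of all measured protein-coding genes were. The highest was MAFF, which encodes a small Maf protein, at 7.45 and 7.75 (0.31), slightly above ATF3, followed by MAFG at 0.17. ATF6B was lowest at -0.24. The median of -0.013 turned to 0.026 and 0.018 after quantile normalization and cyclic loess. JDP2, which encodes a close relative of ATF3, was at 0.10.

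The integrated stress response is the pathway through which ATF4 turns on ATF3. Of its 14 measured genes 11 were lower on the compound 1 array (7 after quantile normalization and 7 after cyclic loess). In the deposited values 58.9% of all measured protein-coding genes were lower. ATF4 itself was at 8.95 and 8.83, a difference of -0.12. DDIT3, which encodes the stress factor CHOP, was at 5.84 and 5.77, and TRIB3 at 8.54 and 8.53. The largest differences were those of DDIT4 (-0.79), VLDLR (-0.23) and STC2 (0.21). TRIB3 turned positive after quantile normalization and after cyclic loess (0.06 in each). Whether the integrated stress response differed between the treatments was not tested. PPP1R15A was not analysed here.

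GDF15 is also a target of p53. Of 9 measured p53 targets 5 were higher and 4 lower, with a median of 0.029 (-0.0007 after centring). The shares over all measured protein-coding genes were 40.1% higher and 58.9% lower, with a median of -0.041. The exonuclease gene AEN was at -0.28, TP53I3 at -0.27 and TIGAR at -0.15. MDM2 and CDKN1A were not analysed here.

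The receptor gene of GDF15, GFRAL, did not enter, at 3.03 with the antagomir and 2.94 with compound 1, and neither did RET, at 4.82 and 5.08. FURIN, which encodes a protease that cleaves proproteins of the superfamily, was at 9.22 and 9.18. The related convertase genes PCSK5, PCSK6 and PCSK7 were at 0.17, 0.15 and 0.06. The list of other TGF-beta superfamily ligands also took in BMP1, which encodes a protease and not a ligand. Of this list 17 genes were measured, 9 higher and 7 lower with a median of 0.018, which centring turned to -0.011. All measured protein-coding genes were 40.1% higher and 58.9% lower, with a median of -0.041. The farthest from 0 among the 17 were BMP2 (0.21), BMP4 (0.21) and the protease gene BMP1 (-0.21), where GDF15 had 0.81. Of the ligand genes under the entry level on both arrays, MSTN was at 0.95, BMP5 at 0.48, GDF3 at 0.34 and LEFTY2 at -0.31.

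Of 6 measured genes reported as EGR1 targets, 3 were higher and 3 lower, with a median of 0.016 (-0.013 after centring). Against this, 40.1% of all measured protein-coding genes were higher and 58.9% lower, with a median of -0.041. The matrix protein gene THBS1 was higher, at 11.76 against 11.55 (0.21), as was NAB2 (0.21), and VEGFA was lower, at 9.89 against 10.35 (-0.47).

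**Figure D4:**
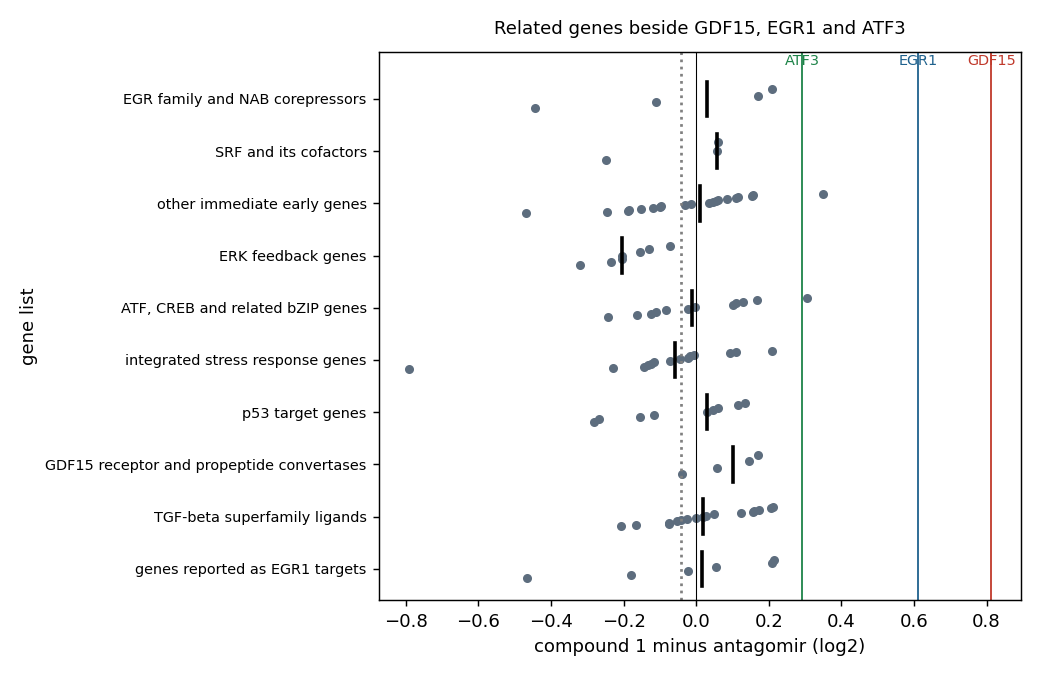
Difference between the arrays (x axis, log2, compound 1 minus antagomir) of the measured genes of 10 related lists (y axis); points are genes, short black bars list medians, the dotted line the median of all measured protein-coding genes (-0.041) and coloured lines ATF3 (0.29), EGR1 (0.61) and GDF15 (0.81). No measured gene of the lists reaches the EGR1 line, from which nothing is read because EGR1 and GDF15 were picked on this contrast. Genes under the entry level, such as MSTN at 0.95, are not plotted. The 7 ERK feedback genes all lie below 0 in the deposited values plotted here.

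The markers fixed for the labelled cell line were checked on both arrays. All 5 high markers with a cluster were measured, among them the mesenchymal marker VIM at 10.61 and 10.49 and the receptor tyrosine kinase gene AXL at 12.78 and 12.77. Of 4 low markers with a cluster, 3 did not enter, including the estrogen and progesterone receptor genes ESR1 (5.31 and 5.21) and PGR (4.77 and 4.77), whereas the epithelial marker EPCAM was at 6.91 and 7.05. Of 7 markers of other cell types 2 had a cluster, PECAM1 of endothelium and DCN of fibroblasts, and neither entered. Array medians were 5.59 and 5.62.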

How the data were processed

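The values deposited by the authors, 1 for each cluster on each array, were taken as log2 from their range. The sources used here name neither the log base nor the background correction or normalization. RNA was pooled before hybridisation, per the design text deposited with the series, and the labels name a gene-level analysis. Depth does not apply to arrays; their number, 1 per treatment, limits the precision.

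Clusters were named through the platform's probe table and RefSeq (GRCh38.p14). A cluster entered when its higher array reached the 50th percentile of mean levels, and a gene was represented by its brightest entering cluster. Differences are compound 1 minus antagomir, with no test. The genes and the lists were chosen with earlier results of these data known. Named genes are the 3 genes, their neighbours in order and in level, genes fixed for their role, and the 3 largest differences of each list. Alternatives were other scalings, filters, clusters and folds. The functions that pick measured genes and count folds were tested by putting known shifts into shuffled differences of the real arrays. Python 3.11.15, numpy 2.4.6, pandas 2.3.3, matplotlib 3.10.9, R 4.3.3 and limma 3.58.1 were used.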

Additional observations from a re-analysis of the deposited data

How the results depend on the processing

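No difference of GDF15, EGR1 or ATF3 changed direction under centring, quantile normalization or cyclic loess, and the move stayed within 1 robust SD of clusters of like level. With its dimmer cluster EGR1 was at 0.46. The filter decided ranks: with no filter GDF15 was at 15, EGR1 at 68 and ATF3 at 746, and EGR1 was at 2 with entry at the 75th percentile, or with both arrays at or above it (chosen after seeing the data, as was the comparison of paired clusters), 7 after quantile normalization and 6 after cyclic loess. Protein-coding genes past 1.5-fold numbered 78 (higher) and 57 (lower) when the filter was left out, and 2 and 15 at the 75th percentile. Past a log2 difference of 0.32, the lowest fold tried, there were 276 and 481, and past 2-fold 0 and 0. The SRF list median was 0.028 after centring, 0.10 after quantile normalization and 0.084 after cyclic loess, that of ERK feedback genes -0.13 after quantile normalization, that of the TGF-beta ligands 0.17 at the 75th percentile with 3 genes left, and that of the cell line's markers 0.026 and 0.037 after quantile normalization and cyclic loess. The median of all measured protein-coding genes moved too, from -0.041 as deposited to -0.071 after centring. It was 0.0015 after quantile normalization and -0.0063 after cyclic loess. Centring moves every cluster by the same amount. The cause of the other moves was not tested. Adding the 50 bases after the start gave no further motif match in the 4 promoter windows. No paired analysis was possible because neither treatment has a second array.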

Other observations

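Below GDF15 and EGR1, a few other well-expressed genes were higher on the compound 1 array; they were picked after their values were seen, from 5674 protein-coding genes at or above the 75th percentile of level (7.10) on both arrays. CTSL, which encodes the lysosomal protease cathepsin L, was at 7.98 with the antagomir and 8.46 with compound 1 (0.48). The cytokine gene IL18 was at 7.21 and 7.67 (0.46). SERTAD1, a transcriptional coregulator gene, was at 7.94 and 8.39 (0.45). CTSL was the next gene after EGR1 (0.61) in the order of differences there, followed by TMEM225B (0.47), IL18, MEGF9 (0.45) and SERTAD1.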
